A study of Bos taurus with 6 samples.

Results

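The miR-29 family was followed in small RNA libraries of serum extracellular vesicles (EVs), the membrane-bound particles that cells release into blood. Its members were taken by name as bta-miR-29a, bta-miR-29b and bta-miR-29c, which are 3 of the 706 miRNAs in the count table and 3 of the 359 with names of known Bos taurus miRNAs (prefix bta). All 3 had counts in every library. The 6 libraries came from 6 female Holstein cows in mid lactation, at 101 ± 10 days in milk and 574 ± 36 kg body weight, which were kept at a constant 20 °C and 40% humidity. The 3 control cows received a total mixed ration (TMR). The 3 tested cows received a ration in which whole cotton seed and soybean hull took the place of part of the alfalfa hay. This ration also held somewhat less corn silage. Blood was drawn after 30 days. Each diet was thus represented by 3 animals, and serum holds EVs of many tissues, so fewer EVs of a source tissue and less miRNA per EV cannot be told apart. The question was whether the change of diet was accompanied by a change in these miRNAs.

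MiRNAs are short RNAs that pair with messenger RNAs, mainly through the seed near their 5′ end, and lower the output of those messages. The miR-29 family is known for acting on messages of the extracellular matrix, above all collagens and elastin, and is usually found low where tissue turns fibrous. It is also known to act on the DNA methyltransferases DNMT3A and DNMT3B and on the survival factor MCL1. The family is expressed in many tissues, including liver, muscle and cells of the immune system.

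The listed sequences are shown here because they decide how the members can be told apart in sequencing. Capitals mark AGCACCA, the seed of the family, in the deposited sequences, which are written with T in place of U and 5′ to 3′. The first 3 are the members and the last is their closest relative in the table.
bta-miR-29a: ctAGCACCAtctgaaatcggtta
bta-miR-29b: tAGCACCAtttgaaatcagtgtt
bta-miR-29c: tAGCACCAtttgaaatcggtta
bta-miR-29d-3p: tAGCACCAtttgaaatcgatta

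The seed lay at bases 2 to 8 in bta-miR-29b and bta-miR-29c. In bta-miR-29a, which is listed with an extra base at its 5′ end, it lay at bases 3 to 9. Counted from 1 at the 5′ end of bta-miR-29c, the only substitution in bta-miR-29a was T10C, and bta-miR-29b carried G18A, T21G and A22T and was 1 base longer at the 3′ end. The edit distance was 2 between bta-miR-29a and bta-miR-29c, 3 between bta-miR-29b and bta-miR-29c and 5 between bta-miR-29a and bta-miR-29b. Reads of bta-miR-29a and bta-miR-29c were therefore separated by 1 internal base and by the first base, and how reads with a mismatch were assigned is not given in the sources used here. None of the 706 listed sequences lay wholly inside that of a member or enclosed it. The 7 letters AGCACCA, read on the listed strand, were found in 5 of the 706 sequences (0.708%) and in 0 of the 347 newly predicted ones. Outside the family they were found in bta-miR-12048, where they began at base 15 of 23 and so were not its seed.

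The genes were placed by name in the RefSeq annotation of assembly ARS-UCD2.0, which differs from the ARS-UCD1.2 build named in the submitters' processing notes, so that only neighbourhood is given. MIR29A and MIR29B-1 lie within 10 kb of each other, and both overlap the long noncoding RNA gene LOC107131356. MIR29B-2 and MIR29C form another such pair, with CD46, a gene for a regulator of complement, within 10 kb. Mature bta-miR-29b is a single row in the count table, so the share of each of its genes could not be separated. A further pair, MIR29E and MIR29D, overlaps LOC518224. By its name, bta-miR-29d-3p belongs to MIR29D.

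The libraries held between 1277693 and 2176002 miRNA counts, of which 1226928 to 2088249 were on known miRNAs. Levels are given as CPM, counts per 1000000 counts on known miRNAs in the same library. The 95% exact binomial (Clopper-Pearson) interval of a single level reached between 4.62% and 17.4% of the value to either side over the 3 members and 6 libraries. PCR copies are not independent molecules, so the interval describes the error of counting alone. Libraries of the same group differed from each other far beyond sampling noise, with a chi-square per degree of freedom between 96.1 and 278. No library was left out.

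The summed family accounted for 0.0830%, 0.111% and 0.0881% of known miRNA counts in control cows 1, 2 and 3, and 0.0802%, 0.131% and 0.104% in tested cows 1, 2 and 3. The lowest and the highest values were both in tested cows, and the groups overlapped. The control mean was 0.0942% ± 0.0151 (SD, n = 3) and the tested mean 0.105% ± 0.0255 (SD, n = 3), a difference smaller than the spread between cows. Without tested cow 2 the difference, tested minus control, was -0.0018 percentage points. In the values that the authors scaled to the clean reads of each library, the order of the means was the reverse, with an RPM (reads per 1000000 clean reads) of 141 ± 45.4 (SD, n = 3) for control cows and 121 ± 73.2 (SD, n = 3) for tested cows.

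The leading member, bta-miR-29a, was counted 858, 1397 and 1239 times in control cows 1 to 3, and 656, 1819 and 1744 times in tested cows 1 to 3. Its levels were 558.1, 695.4 and 622.5 CPM in control cows 1, 2 and 3, and 534.7, 967.9 and 835.1 CPM in tested cows 1, 2 and 3. Tested cows 2 and 3 were above every control cow, and tested cow 1 was below every control cow. The group means were 625.4 ± 68.7 CPM (SD, n = 3) and 779.2 ± 221.9 CPM (SD, n = 3).

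The levels of bta-miR-29b, the member that comes from both gene pairs, were 86.5, 226.5 and 111.5 CPM in control cows 1 to 3, and 146.7, 177.2 and 118.3 CPM in tested cows 1 to 3. Control cows held both the lowest and the highest level, with all tested cows between them. These levels rest on 133, 455 and 222 counts and on 180, 333 and 247 counts. Between the lowest and the highest library the level of bta-miR-29b differed 2.62-fold, against 2.10-fold for bta-miR-29c and 1.81-fold for bta-miR-29a.

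For bta-miR-29c the levels were 185.4, 191.2 and 147.2 CPM in control cows 1 to 3, and 120.6, 166.5 and 91.0 CPM in tested cows 1 to 3. Tested cows 1 and 3 were below every control cow, and tested cow 2 lay between the control values. The counts behind them were 285, 384 and 293 in control cows 1 to 3, and 148, 313 and 190 in tested cows 1 to 3. The means were 174.6 ± 23.9 CPM (SD, n = 3) and 126.1 ± 38.1 CPM (SD, n = 3).

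**Figure D1:**
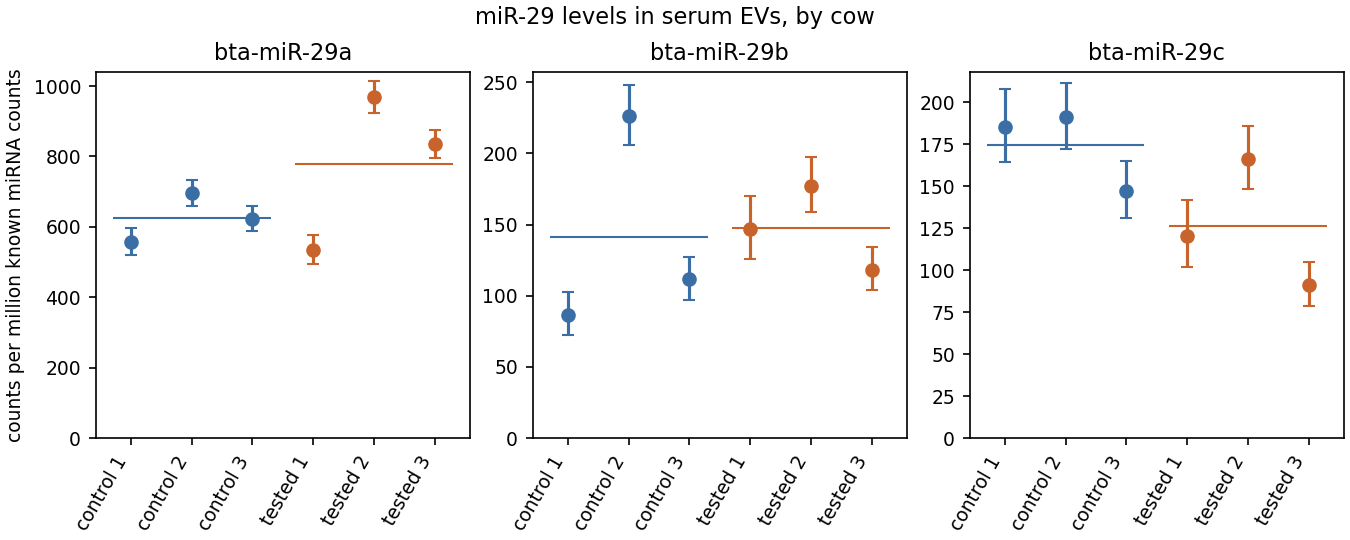
Level of each member (CPM of known miRNA counts, linear axis from 0) in each of the 6 cows, with the 95% counting interval as bars and the group means as lines. The groups overlap for all 3 members, from 534.7 to 967.9 CPM for bta-miR-29a, 86.5 to 226.5 CPM for bta-miR-29b and 91.0 to 191.2 CPM for bta-miR-29c.

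In every library bta-miR-29a was the most abundant member, at rank 59 of the known miRNAs by its mean level of 702.3 CPM over the 6 cows and between ranks 50 and 63 in single cows. It exceeded bta-miR-29c 4.71-fold and bta-miR-29b 4.995-fold on average (geometric mean of the ratio within a cow), in 6 of 6 cows each (two-sided exact sign-flip permutation test, p = 0.0313, the smallest that 6 cows allow, and 0.0469 after Benjamini-Hochberg adjustment over the 3 pairs). The other members were next to each other, with bta-miR-29c at rank 94 and 150.3 CPM and bta-miR-29b at rank 96 and 144.5 CPM. Their difference of 0.08 ± 0.57 on the log2 scale (SD, n = 6) was smaller than the spread between cows, and bta-miR-29c was the higher in only 2 of 6 cows (exact sign-flip permutation test, p = 0.781). Single values of bta-miR-29b reached from rank 82 in control cow 2 to rank 116 in control cow 1. The order is one of counts, and each miRNA also carries its own preference in ligation and amplification, which was not tested.

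Near bta-miR-29a in mean level stood bta-miR-30c at rank 57 with 833.2 CPM and bta-miR-429, a member of the epithelial miR-200 family, at rank 58 with 702.9 CPM. Of these, bta-miR-429 was above bta-miR-29a in 3 of 6 cows and bta-miR-30c in 5 of 6. Just below were bta-miR-146b with 595.5 CPM and bta-miR-24-3p with 580.4 CPM, each above bta-miR-29a in 1 cow. The nearest to bta-miR-29c and bta-miR-29b were bta-miR-10a with 157.3 CPM, bta-miR-152 with 153.1 CPM, the lymphocyte miRNA bta-miR-150 with 146.9 CPM, bta-miR-3432a with 139.6 CPM and bta-miR-92b with 137.9 CPM. None of these was above the member it stands beside, or below it, in all 6 cows, so the order around these members varied between cows.

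Tested and control cows were compared by edgeR's quasi-likelihood test across 623 miRNAs with a total of at least 10 counts, all 3 members among them. To pass the threshold, a miRNA needed a log2 fold change beyond 1 or -1 together with an unadjusted p under 0.05, and a positive fold change means a higher level in the tested group. Of the 3 members, 0 passed, while 20 of the 623 miRNAs did (3.21%), 13 of them higher and 7 lower in the tested group. At an adjusted p below 0.05 there were 0 members and 1 of 623 miRNAs (0.161%). At an unadjusted p below 0.05 alone there were 0 members and 29 miRNAs, and DESeq2 and limma also gave 0 members by the same threshold.

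The log2 fold change of bta-miR-29a was 0.26 (standard error 0.35, unadjusted edgeR p of 0.473, adjusted p = 0.880), and its 95% interval ran from -0.50 to 1.02, that is from 0.706-fold to 2.04-fold. For bta-miR-29b it was 0.01 (standard error 0.60, unadjusted edgeR p of 0.981, adjusted p = 0.994), with an interval from 0.412-fold to 2.48-fold. For bta-miR-29c it was -0.50 (standard error 0.56, unadjusted edgeR p of 0.386, adjusted p = 0.824), with an interval from 0.307-fold to 1.63-fold. All 3 tested cows were below the control mean for bta-miR-29c, and 2 of 3 were above it for bta-miR-29a and for bta-miR-29b. A 2.04-fold higher level of bta-miR-29a and a 0.307-fold level of bta-miR-29c in the tested group thus stayed within the error. With the members merged into 1 row, the log2 fold change was 0.11 (standard error 0.33), with an interval from 0.661-fold to 1.75-fold.

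Single cows moved these values. The fold change of bta-miR-29a came to 0.00 on the log2 scale without tested cow 2 and 0.47 without tested cow 1. That of bta-miR-29b came to 0.52 when control cow 2 was left out and to -0.27 when control cow 1 was. That of bta-miR-29c ranged from -0.82 without tested cow 2 to -0.25 without tested cow 3, and was negative with each cow left out. When the counts of the near-identical bta-miR-29a and bta-miR-29c were merged, the merged row had 0.13. As bta-miR-29a holds most of the counts of that row, this value describes the pair and not bta-miR-29c.

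**Figure D2:**
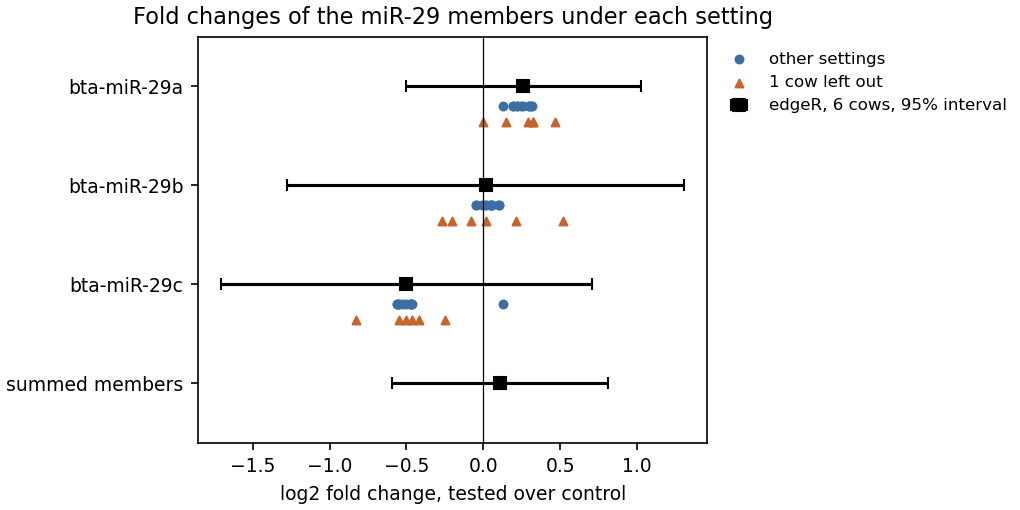
Log2 fold change, tested over control, of each member and of the 3 members merged (square, with its 95% interval from edgeR on 6 cows), the same under other settings (circles) and with 1 cow left out (triangles). All 4 intervals include 0, the circle of bta-miR-29c at 0.13 is the merged row with bta-miR-29a, which holds most of its counts, and bta-miR-29c is negative in all 6 triangles.

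**Figure D3:**
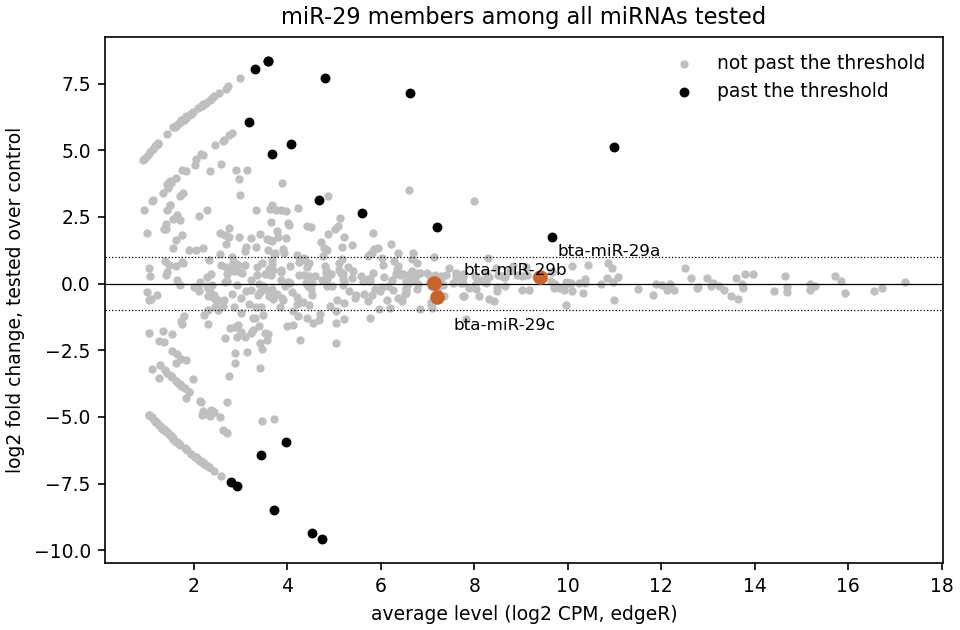
Average level (log2 CPM) against log2 fold change, tested over control, of the 623 miRNAs tested, with the 20 past the threshold in black and the 3 members labelled. Dotted lines mark a log2 fold change of 1 and -1, and the members lie between them at 0.26, 0.01 and -0.50.

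The makeup of the family was compared next, since it does not depend on the total to which a library is scaled. The share of bta-miR-29c in the summed counts of the 3 members was 22.3%, 17.2% and 16.7% in control cows 1, 2 and 3, and 15.04%, 12.7% and 8.71% in tested cows 1, 2 and 3. Every tested cow was below every control cow, with means of 18.7% ± 3.12 (SD, n = 3) and 12.1% ± 3.20 (SD, n = 3). The two-sided exact permutation test gave p = 0.1, the smallest value that 3 cows against 3 allow, so it could not pass 0.05. It is 1 of 3 shares compared. The nearest cows of the groups were not separated by their counts, with 95% binomial intervals of 14.99% to 18.5% in control cow 3 and 12.9% to 17.4% in tested cow 1.

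For bta-miR-29a the share was 67.2%, 62.5% and 70.6% in control cows 1 to 3, and 66.7%, 73.8% and 80.0% in tested cows 1 to 3. Tested cow 1 lay among the control cows, and the exact permutation test gave p = 0.3. For bta-miR-29b the values were 10.4%, 20.4% and 12.7% in control cows 1 to 3, and 18.3%, 13.5% and 11.3% in tested cows 1 to 3, with means of 14.5% ± 5.21 (SD, n = 3) and 14.4% ± 3.56 (SD, n = 3) (exact permutation test, p = 1).

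**Figure D4:**
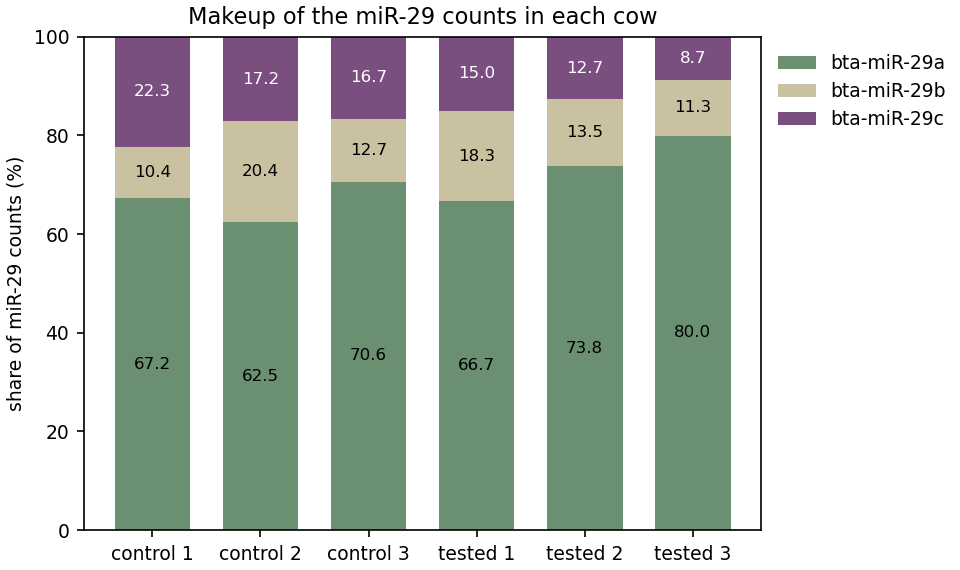
Share of each member in the summed miR-29 counts of each cow, in percent. The share of bta-miR-29c lies between 16.7% and 22.3% in control cows 1 to 3, and between 8.71% and 15.04% in tested cows 1 to 3.

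The ratio of bta-miR-29a to bta-miR-29c was examined after these shares had been seen. It was 3.01, 3.64 and 4.23 in control cows 1 to 3, and 4.43, 5.81 and 9.18 in tested cows 1 to 3, again without overlap. The geometric means were 3.59 and 6.18, a difference of 0.78 on the log2 scale (exact permutation test, p = 0.1, 1 of 3 ratios between members). With 1 cow left out its size ranged from 0.50 without tested cow 3 to 1.02 without tested cow 1, while its sign could not change, as the groups do not overlap. Such a separation was common in these libraries. Among 106 known miRNAs with at least 100 CPM on average and counts in every cow, 675 of 5565 ratios between a pair of miRNAs separated the groups (12.1%). By level, the groups overlapped for all 3 members, while they did not for 70 of the 623 miRNAs tested (11.2%).

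No correlation between members passed its test over the 6 cows. On log2(CPM + 1), bta-miR-29a and bta-miR-29b, which share the MIR29A and MIR29B-1 pair, had a Pearson correlation of 0.407 (exact permutation p = 0.417) and a Spearman correlation of 0.429 (exact permutation p = 0.419). For bta-miR-29b and bta-miR-29c, which share the MIR29B-2 and MIR29C pair, the Pearson correlation was 0.232 (exact permutation p = 0.669) and the Spearman correlation 0.257 (exact permutation p = 0.658). For bta-miR-29a and bta-miR-29c they were -0.140 (exact permutation p = 0.761) and 0.0286 (exact permutation p = 1). After adjustment over the 3 pairs no p was below 0.761. Without the 2 cows farthest from the median, the Pearson correlations were 0.632, 0.508 and 0.591 in the same order of pairs, each over 4 cows. Within the 3 control cows they were 0.966, 0.366 and 0.112 in that order, and within the 3 tested cows 0.202, 0.997 and 0.277. These were positive throughout, but 3 cows are too few for a test.

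The known miRNAs most like each member over the 6 cows were sought among the 107 with at least 100 CPM on average, by the Pearson correlation of log2(CPM + 1), as a description. The highest of so many correlations over 6 cows are large by selection, so no p is given. For bta-miR-29a it was bta-miR-345-5p, with 0.986, followed by bta-let-7e with 0.829 and bta-miR-140 with 0.804. Levels of bta-miR-345-5p were 163.9, 192.6 and 176.4 CPM in control cows 1 to 3, and 140.2, 274.0 and 250.9 CPM in tested cows 1 to 3, in the same order of cows as bta-miR-29a. For bta-miR-29b the highest were bta-miR-140 with 0.832, bta-miR-660 with 0.811 and bta-miR-2284x with 0.798. For bta-miR-29c they were bta-miR-339a with 0.790, bta-miR-151-3p at 0.763 and bta-miR-652 at 0.749. No member of the family was among the miRNAs most like another member.

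Other rows of the family had counts in some cows and none in others. The closest relative, bta-miR-29d-3p, which differs from bta-miR-29c by G19A alone, had 27 counts in control cow 3, 51 in tested cow 3 and 0 in the other 4 cows. Its opposite arm, bta-miR-29d-5p, had 18 and 42 counts in control cows 2 and 3, 14 in tested cow 2 and 0 elsewhere. Both arms were thus seen together only in control cow 3. A count of 0 allows a level of up to 1.44 to 2.45 CPM, depending on the library, at a floor of 3 counts. Neither arm passed the threshold in edgeR (adjusted p = 0.987 and 0.879). With the 2 rows included, the bta-miR-29c share kept its direction.

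Red blood cell miRNAs, which enter serum when cells lyse, varied along with some of these levels. The sum of bta-miR-451, bta-miR-486 and bta-miR-144 was 2.84%, 1.63% and 1.35% of the known miRNA counts in control cows 1, 2 and 3, and 5.96%, 1.08% and 0.862% in tested cows 1, 2 and 3. Tested cow 1 and control cow 1, which had the highest sums, had the lowest levels of bta-miR-29a, and tested cow 3, with the lowest sum, had the lowest share of bta-miR-29c. In the cows other than tested cow 1, the share of bta-miR-29c followed the order of the sums, from 22.3% in control cow 1 to 8.71% in tested cow 3. Tested cow 1, with the highest sum, had a bta-miR-29c share of 15.04%, below every control cow. The log2 ratio of bta-miR-451 to bta-miR-23a, a common sign of lysis, ran from 0.76 to 1.56 in control cows 1 to 3, and from -0.55 to 2.84 in tested cows 1 to 3. The part of red blood cells in these values was not tested. With the red blood cell miRNAs taken out of the total, the difference of the summed share was 0.0118 percentage points, against 0.0111 with them. They made up at most 5.96% of that total, so this step could change the difference only slightly and is no test of their part.

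Of the marker lists for other sources, epithelium had the highest sum, with 7.79% to 9.33% of the known miRNA counts in control cows 1 to 3, and 9.04% to 9.75% in tested cows 1 to 3, from the 7 of 8 miRNAs with counts everywhere (bta-miR-203 had no value here). Liver miRNAs (3 of 3 with counts everywhere) made up 0.107% to 0.159% and 0.113% to 0.202%. Platelet and vessel miRNAs (7 of 8) made up 0.0303% to 0.0846% and 0.0731% to 0.0923%. White blood cell miRNAs (4 of 5, with no value for bta-miR-142-3p) made up 0.0196% to 0.0386% and 0.0124% to 0.0439%. Muscle miRNAs (3 of 7, with no value for bta-miR-208a and bta-miR-208b) made up 0.0133% to 0.0158% and 0.0152% to 0.0178%. The summed miR-29 family overlapped the ranges of the liver and vessel lists and was below the epithelial one, although such sums depend on the number of miRNAs listed.

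MiRNAs known from other species for roles that miR-29 shares were described as groups. Of 10 miRNAs linked to DNA methyltransferases, all 10 were tested and 0 passed the threshold in either direction, against 3.21% of all miRNAs tested and 3 of the 312 known ones. Their median log2 fold change was -0.14, against 0.07 over the 623 miRNAs and -0.01 over the 312 known ones. Values ran from -0.47 for bta-miR-148b to 0.64 for bta-miR-143, and the most abundant were bta-miR-26a with 0.04, bta-miR-148a with -0.26 and bta-miR-200c with -0.10. The miR-148 and miR-152 family is known for acting on DNMT1, and bta-miR-152 of the same family had -0.18.

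Of 26 miRNAs linked to fibrosis and the extracellular matrix, 24 were in the table and 22 were tested. Of these, 1 was past the threshold and higher in the tested group, and 0 were past it and lower, against 3.21% of all miRNAs tested and 3 of the 312 known ones. It was bta-miR-199a-3p, a miRNA of fibroblasts and vessel walls, counted 17, 45 and 12 times in control cows 1 to 3 and 224, 36 and 122 times in tested cows 1 to 3. Its fold change on the log2 scale was 2.66, with a standard error of 1.10 (edgeR adjusted p = 0.448). Its groups overlapped through tested cow 2. The median of the 22, all known miRNAs, was 0.15 and 16 were positive. The 22 are not independent, as the list holds related miRNAs of the miR-200, miR-30 and miR-199 families. Some of the positive ones had few counts, such as bta-miR-199b with 1.04 CPM and bta-miR-214 with 2.36 CPM on average. The shift of the list was not tested. Over the 312 known miRNAs the median was -0.01 and 154 were positive, and over all 623 it was 0.07 with 333 positive. The best known fibrosis miRNA, bta-miR-21-5p, had -0.14 (edgeR adjusted p = 0.872), and bta-miR-30a-5p, the most abundant of the list, had 0.09 (edgeR adjusted p = 0.881). The epithelial bta-miR-141 had 0.37 with an unadjusted edgeR p of 0.0346 (adjusted p = 0.448), which is under the fold change that the threshold asks for.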

How the data were processed

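Small RNAs of serum EVs were sequenced as 1 library per cow (TruSeq Small RNA kit). The authors kept reads of a set length range after quality filtering, matched them to the bovine genome, removed other RNA classes, and took known miRNAs from miRBase and further ones from miRDeep2. The submitters' processing notes name cutadapt 1.14, Bowtie and build ARS-UCD1.2. The counting tool is not given in the sources used here. The authors deposited raw counts per miRNA. A table labelled TPM, also from the authors, holds RPM values, each the count divided by 1 number per library. The authors' fold changes, p-values and list of called miRNAs were also deposited and were not used.

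Members and lists were chosen with earlier results of these data known. The miRNAs named were the members, rows named bta-miR-29 with a letter, sequences with the seed or within 3 edits, genes within 10 kb, the 3 most correlated miRNAs of each member, its 2 neighbours on each side in mean level and the leading ones of fixed lists. bta-miR-12048 was chosen after its values were seen. Levels were CPM of the known miRNA counts. Counts were tested with edgeR 4.0.16 in R 4.3.3 (TMM, quasi-likelihood F test, count sum of at least 10, 623 miRNAs) with Benjamini-Hochberg adjustment, without a replicate block, since libraries of the same number did not deviate together (correlations of -0.0581, -0.0476 and -0.0190). Alternatives were DESeq2 1.42.0, limma 3.58.1 on log2(CPM + 1), other scalings, filters and totals, merged rows, the replicate block and each cow left out. Shares and ratios were compared by two-sided exact permutation tests in SciPy 1.17.1. The fits were tested on simulated data. Depth was 1226928 to 2088249 known miRNA counts per library.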

Additional observations from a re-analysis of the deposited data

How the results depend on the processing

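No member of the family passed the threshold under any of the 17 alternatives run for each. The fold change of bta-miR-29a changed sign only without tested cow 2 (-0.0005, log2), within a range of -0.0005 to 0.47 with 1 cow left out. That of bta-miR-29b, close to 0, changed sign under 6 alternatives, with -0.0471 by DESeq2, -0.046 with RLE factors, -0.0069 without a filter, and from -0.27 to 0.52 with 1 cow left out. That of bta-miR-29c was negative under each alternative that kept it as its own row, and the row merged with bta-miR-29a, which holds most of its counts, had 0.13. With the replicate block the 3 fold changes were 0.22, 0.10 and -0.56 and the number of all miRNAs past the threshold was 12 in place of 20, and none of the same-numbered pairs of cows deviated together. That number was 34 by limma, 13 of 348 with filterByExpr and 6 of 312 when known miRNAs were fitted alone, against 3 known miRNAs in the fit of all. The cause was not tested. Leaving all library factors out moved the median of all miRNAs from 0.07 to 0.11. The difference of the summed share was -0.0020 percentage points in the deposited RPM values and ranged from -0.0018 to 0.0237 with 1 cow left out. The difference in the share of bta-miR-29b was 0.0015 percentage points with all rows of the family and ranged from -2.13 to 2.84 with 1 cow left out. The share of bta-miR-29a kept its direction under all 7 alternatives. That of bta-miR-29c kept it with all rows of the family, and leaving out 1 cow could not reverse it, as its groups do not overlap. With 1 cow left out, the differences in these shares ranged from 3.44 percentage points (without tested cow 3) to 10.09 (without tested cow 1) and from -8.03 (without tested cow 1) to -4.79 (without control cow 1). The log2 difference between bta-miR-29a and bta-miR-29c ranged from 2.04 to 2.37 with 1 cow left out, where 5 cows cannot give a p below 0.0625, and that between bta-miR-29c and bta-miR-29b from -0.12 to 0.18. A count of 0, as in 3 or 4 of 6 cows for the bta-miR-29d arms, allows up to 1.44 to 2.45 CPM at a floor of 3 counts.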
